A study of Mus musculus with 8 samples.

Results

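The 10 genes described here encode the core machinery that makes, breaks down, moves and regulates polyamines: Odc1, Amd1, Srm and Sms in synthesis, Sat1 and Smox in catabolism, Azin1, Oaz1 and Oaz2 in the antizyme system, and Atp13a3 in transport. They were chosen by symbol, matched to Ensembl identifiers, and are 10 of the 55536 genes in the count tables. All 10 were among the 11189 genes with enough reads to be tested. The study compared messenger RNA in activated mouse CD8+ T cells grown with or without GC7, a spermidine analogue that inhibits deoxyhypusine synthase. Every library came from lymph node cells of mice on the C57BL/6 strain, 5 to 12 weeks of age and with sexes randomised, that carry the OT-1 T cell receptor transgene on a Rag-1 knockout background, so that all T cells share a receptor for the ovalbumin peptide SIINFEKL. The mice bore congenic CD45.1 or CD45.2 alleles, and which library had which allele was not given in the sources used here. Cells of both groups received 100 nM SIINFEKL for 2 days and then 20 ng/mL recombinant human IL-2 for 2 days. During the IL-2 phase the GC7 group (4 libraries) received 10 µM GC7 and the Mock group (4 libraries) received the same volume of the vehicle, acetic acid at 10 mM. RNA was taken from 2000000 cells per sample, and the study calls the 4 samples of a group biological replicates.

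Polyamines (putrescine, spermidine and spermine) are small, positively charged molecules that bind nucleic acids and are needed in quantity by dividing cells, including activated T lymphocytes. Ornithine decarboxylase makes putrescine, and spermidine and spermine synthases lengthen it with aminopropyl groups taken from decarboxylated S-adenosylmethionine. Spermidine is also the donor of the aminobutyl group with which deoxyhypusine synthase, the target of GC7, begins the hypusine modification of eIF5a. Antizymes bind ornithine decarboxylase and send it to the proteasome, and they also restrain polyamine uptake. Their messages are read in full only when the ribosome skips a base at a frameshift site, a step that polyamines promote.

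That frameshift site is what sets the antizyme transcripts apart from the others. It is shown for both antizyme genes in GRCm38, with the codon before the shift and the stop codon that is bypassed in capitals, at chr10:80828265-80828325 on the plus strand for Oaz1, chr9:65686242-65686302 on the plus strand for Oaz2 and chr17:17345906-17345966 on the minus strand for Oaz1-ps, a processed pseudogene of Oaz1.

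Oaz1: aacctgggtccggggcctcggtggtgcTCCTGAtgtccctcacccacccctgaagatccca

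Oaz2: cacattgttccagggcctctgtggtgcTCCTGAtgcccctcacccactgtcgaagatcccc

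Oaz1-ps: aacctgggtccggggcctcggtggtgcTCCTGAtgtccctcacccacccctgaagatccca

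The Oaz1 and Oaz2 windows were identical at 49 of 61 bases and shared the capitals. Over the same window Oaz1-ps matched Oaz1 at 61 of 61 bases, so a read from this stretch cannot be assigned to the gene or to its pseudogene by sequence. Messenger RNA counts do not report how often the frameshift occurs.

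Amd1 has near-identical relatives too, which bears on its counts. The coding sequences of Amd1 and Amd2, both 1002 bases long and both on chromosome 10, differed at 1 base (G796C, Amd1 base first, counted from the first coding base), a 99.9% identity. The coding bases 709 to 808 around that difference follow with the differing base in capitals, at chr10:40290174-40290273 for Amd1 and chr10:35710752-35710851 for Amd2, both on the minus strand of GRCm38.

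Amd1: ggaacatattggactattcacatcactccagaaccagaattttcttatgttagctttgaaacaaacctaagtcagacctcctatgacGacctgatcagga

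Amd2: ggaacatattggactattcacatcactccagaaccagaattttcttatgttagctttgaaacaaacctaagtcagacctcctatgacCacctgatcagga

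Total counts ranged from 20045041 to 25284730 in the Mock libraries and from 17528776 to 23449164 in the GC7 libraries, and each of the 10 genes had between 612 and 22090 counts in every library. Levels are CPM, a gene's counts scaled to a common library size with TMM factors, which assume that most genes do not change. In a bulk sample, fewer cells of a type and less RNA per cell cannot be told apart. Mock replicate 2 and GC7 replicate 3 stood apart from their groups: their distance to the closest library of the group, divided by the group's range, passed Dixon's 95% critical value for 10.3% and 3.96% of the tested genes, against 0.42% to 0.992% for each of the other 6 libraries. The labelled cell type was borne out by its markers, with Cd3d, Cd3e, Cd3g, Cd8a, Cd8b1 and Trac summing to between 2556 and 3144 CPM in every library. Singly they moved in both directions in the edgeR test used below. Cd8a was higher with GC7 (log2 fold change 0.48, adjusted p = 3.43e-05). Cd3e, Cd3g and Trac were lower (-0.23, -0.37 and -0.38, adjusted p = 0.00789, 0.00412 and 0.000734). Cd3d and Cd8b1 had -0.27 and -0.18 (adjusted p = 0.025 and 0.0899). Listed markers of other cells that were under the filter had few counts. The most were 10 to 27 per library for Cd79a and at most 22 for Col1a1. There were 0 counts of Ms4a1 and Siglech in all 8 libraries and at most 9 counts of Cd4. Any of 5 myeloid genes had at most 8, and the erythroid genes Hba-a1 and Hbb-bs at most 7. Of the 18 genes on the lists for other cells, 3 passed the filter, and all 3 were lower with GC7: Cd79b, of the 3 B cell genes, summed with its list to 6.98 to 10.1 CPM in Mock and 4.61 to 5.86 in GC7, Xcr1, of the 3 dendritic genes, to 4.17 to 5.79 and 0.444 to 1.13, and Pecam1, of the 4 stromal genes, to 51.3 to 56.0 and 30.3 to 32.0. Xcr1 passed the filter only through the Mock libraries, so its direction was tied to how it entered the test. The part of these 3 genes in the results below was not tested.

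Of the 10 genes, 4 passed an adjusted p of 0.01 (edgeR quasi-likelihood test, Benjamini-Hochberg over all 11189 genes), beside 46.6% of all genes tested. Odc1, Amd1 and Srm were the 3 that were higher with GC7, beside 23.0% of all genes in that direction, and Smox was the 1 that was lower, beside 23.5%. With both an adjusted p under 0.01 and more than a 2-fold change, 0 of the 10 were called by edgeR, beside 8.48% of all genes; the number was also 0 at an unadjusted p under 0.05, and 0 with DESeq2 and with limma-voom. The libraries of the 2 groups did not overlap for 6 of the 10 genes, beside 55.6% of all genes. The median log2 fold change of the 10 was -0.01, beside 0.02 for all genes tested, and the median of its size without sign was 0.31, beside 0.29. The 10 genes as a whole thus changed about as often and as much as the rest of the tested genes, and their values differed by role, as given next.

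**Figure D1:**
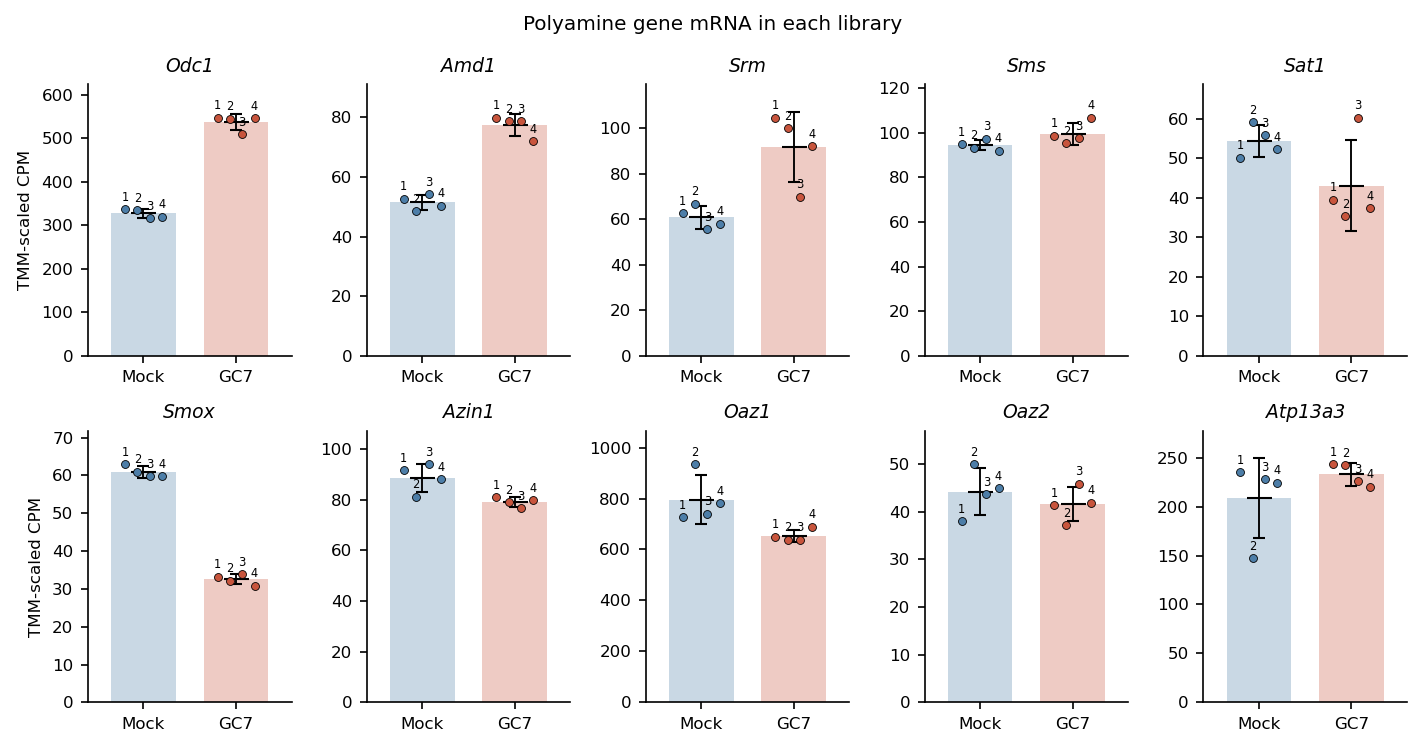
TMM-scaled CPM (y axis, from 0) of the 10 polyamine genes in the Mock and GC7 libraries; points are libraries numbered by replicate, bars are means and error bars are the SD (n = 4). Odc1, Amd1 and Srm lie higher in all 4 GC7 libraries and Smox lower, while GC7 replicate 3 is apart for Sat1 and Mock replicate 2 for Atp13a3.

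Odc1 (ENSMUSG00000011179, chr12:17544794-17551505, plus strand) encodes ornithine decarboxylase, the rate-limiting enzyme of polyamine synthesis. In Mock replicates 1 to 4 it stood at 337, 336, 317 and 320 CPM, a mean of 327 ± 10.3 (SD, n = 4). With GC7 it stood at 547, 545, 509 and 546 CPM, a mean of 537 ± 18.7. The lowest GC7 library, replicate 3, was well above the highest Mock library, and the groups did not overlap. The rise was 1.64-fold, a log2 fold change of 0.71 ± 0.06 (SE; 95% interval 0.59 to 0.84; adjusted p = 6.99e-07).

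Amd1 (ENSMUSG00000075232, chr10:40287458-40302186, minus strand) encodes S-adenosylmethionine decarboxylase, which supplies the aminopropyl donor for both later steps. Its Mock levels were 52.7, 48.5, 54.2 and 50.4 CPM (mean 51.5 ± 2.51). The GC7 levels were 79.8, 78.8, 78.8 and 72.1 CPM (mean 77.4 ± 3.57). Every GC7 library exceeded every Mock library. Amd1 rose by 50.4%, with a log2 fold change of 0.59 ± 0.06 (95% interval 0.45 to 0.72; adjusted p = 6.99e-06).

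Srm (ENSMUSG00000006442, chr4:148591503-148594993, plus strand) encodes spermidine synthase. Mock replicates 1 to 4 gave 62.8, 66.9, 55.8 and 58.1 CPM (mean 60.9 ± 4.97). GC7 replicates 1 to 4 gave 105, 100.1, 70.0 and 92.1 CPM (mean 91.7 ± 15.4). The groups did not overlap, but GC7 replicate 3 was only just above the highest Mock library, which widened the error. Srm rose 1.51-fold, with a log2 fold change of 0.59 ± 0.11 (95% interval 0.35 to 0.83; adjusted p = 0.000644), and without GC7 replicate 3 the log2 fold change was 0.70 (adjusted p = 2.64e-05).

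Sms (ENSMUSG00000071708, chrX:157443855-157492287, minus strand) encodes spermine synthase, which converts spermidine to spermine, and it did not pass the threshold. It was at 94.8, 93.4, 97.4 and 92.0 CPM in Mock (mean 94.4 ± 2.28) and at 98.7, 95.4, 97.6 and 107 CPM with GC7 (mean 99.6 ± 4.93). The groups overlapped. The log2 fold change was 0.08 ± 0.06, with a 95% interval of -0.05 to 0.20 (adjusted p = 0.262), and the upper end of this interval lies below the lower ends for Odc1, Amd1 and Srm.

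The contrast between the spermidine and spermine steps can be read without scaling between libraries, as a ratio of counts within a library. Such ratios depend on the lengths of both genes, so only their change between groups is interpreted. The ratio of Sms to Srm counts was 1.51, 1.39, 1.74 and 1.58 in Mock and 0.944, 0.953, 1.39 and 1.16 with GC7. The highest GC7 value, in replicate 3, fell just under the lowest Mock value, so the groups did not overlap. Srm, the denominator, was itself called, so this ratio is not independent of that result. The mean went from 1.56 ± 0.147 to 1.11 ± 0.212 (two-sided exact permutation test, p = 0.0286, the smallest that 4 against 4 libraries allow; adjusted p = 0.0429 over 6 ratios).

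The catabolic enzymes followed. Smox (ENSMUSG00000027333, chr2:131491496-131525922, plus strand) encodes spermine oxidase, which turns spermine back into spermidine and releases hydrogen peroxide. Its Mock levels were 62.9, 61.0, 59.8 and 59.8 CPM (mean 60.9 ± 1.46). With GC7 they were 33.3, 32.2, 34.0 and 30.9 CPM (mean 32.6 ± 1.35). The groups lay far apart relative to their spread. Smox fell 1.87-fold, the largest change among the 10 genes, with a log2 fold change of -0.90 ± 0.06 (95% interval -1.03 to -0.77; adjusted p = 1.2e-07).

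Sat1 (ENSMUSG00000025283, chrX:155213132-155216449, minus strand) encodes spermidine/spermine acetyltransferase, whose acetylated products are oxidised or exported. It was at 50.1, 59.1, 55.8 and 52.2 CPM in Mock (mean 54.3 ± 3.96). With GC7 it was at 39.6, 35.3, 60.2 and 37.3 CPM (mean 43.1 ± 11.6). GC7 replicates 1, 2 and 4 were below every Mock library, whereas GC7 replicate 3 was above them all. The log2 fold change was -0.34 ± 0.14 (95% interval -0.65 to -0.03; adjusted p = 0.0578), which did not pass the threshold. Without GC7 replicate 3 it was -0.54 (adjusted p = 0.000157), which passed. With all libraries kept and no filter on low counts it passed as well (-0.34, adjusted p = 0.000386). The call thus turned on that library and on the filter.

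The ratio of Sat1 to Odc1 counts sets the enzyme that opens catabolism against the enzyme that opens synthesis. It was 0.149, 0.176, 0.176 and 0.163 in Mock, and 0.0723, 0.0647, 0.118 and 0.0683 with GC7. All GC7 libraries, replicate 3 included, were below all Mock libraries. In replicate 3, however, Sat1 itself was above every Mock library, at 60.2 CPM. The lower ratio there came from Odc1, at 509 CPM against 317 to 337 in Mock. Odc1 was itself called and Sat1 was not, so the ratio does not show a fall in Sat1. The mean went from 0.166 ± 0.0130 to 0.0809 ± 0.0252 (two-sided exact permutation test, p = 0.0286; adjusted p = 0.0429).

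Within the antizyme system, 0 of the 3 genes passed an adjusted p of 0.01 with edgeR, beside 46.6% of all genes, and 2 of 3 (Azin1 and Oaz1) had an unadjusted p under 0.05, beside 63.6%. DESeq2 called 1 of them, beside 50.7% of all genes, and limma-voom 0, beside 46.5%. Oaz1 (ENSMUSG00000035242, chr10:80826656-80829290, plus strand) encodes antizyme 1, the most widely expressed antizyme. It was at 728, 934, 741 and 781 CPM in Mock (mean 796 ± 94.9) and at 651, 639, 639 and 689 CPM with GC7 (mean 654 ± 23.9). The groups did not overlap, and Mock replicate 2 was far above the rest of its group. The log2 fold change was -0.28 ± 0.08 (95% interval -0.46 to -0.10; adjusted p = 0.0108), just short of the threshold. Without Mock replicate 2 the value was smaller, -0.19, while the adjusted p passed the threshold at 0.00723, as it did without Mock replicate 1 (-0.33; adjusted p = 0.00931); DESeq2 on all libraries gave -0.29 with an adjusted p of 0.00192.

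Oaz2 (ENSMUSG00000040652, chr9:65668001-65690300, plus strand) encodes antizyme 2. Its levels were 38.0, 49.9, 43.7 and 45.0 CPM in Mock (mean 44.2 ± 4.89) and 41.4, 37.2, 45.9 and 41.9 CPM with GC7 (mean 41.6 ± 3.55). The groups overlapped throughout. The log2 fold change was -0.09 ± 0.09 (95% interval -0.28 to 0.11; adjusted p = 0.418), and its sign turned with library totals in place of TMM factors.

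Azin1 (ENSMUSG00000037458, chr15:38487427-38519266, minus strand) encodes antizyme inhibitor, a relative of ornithine decarboxylase without enzyme activity that binds antizymes and so spares the enzyme. Mock levels were 91.6, 81.2, 94.0 and 88.0 CPM (mean 88.7 ± 5.55), and GC7 levels were 81.0, 79.0, 76.5 and 79.8 CPM (mean 79.1 ± 1.88). The groups did not overlap, though the highest GC7 and the lowest Mock library, replicate 2, nearly met. The log2 fold change was -0.17 ± 0.06 (95% interval -0.30 to -0.03; adjusted p = 0.0345). Without Mock replicate 2 it was -0.20 and passed the threshold (adjusted p = 0.00272), while with library totals in place of TMM factors it was -0.07 (adjusted p = 0.377). Azin1 shares 358 exon bases with Gm49077, an antisense gene with at most 6 counts in any library.

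Ratios within a library set the counts of Odc1 against those of its regulators. The ratio of Odc1 to Oaz1 counts was 0.463, 0.359, 0.428 and 0.41 in Mock and 0.841, 0.854, 0.797 and 0.793 with GC7. The groups were far apart, and the mean rose 1.98-fold, from 0.415 ± 0.0430 to 0.821 ± 0.0309 (two-sided exact permutation test, p = 0.0286; adjusted p = 0.0429). The ratio of Odc1 to Azin1 counts was 3.37 to 4.13 in Mock and 6.65 to 6.90 with GC7 (means 3.70 ± 0.315 and 6.79 ± 0.112). The two-sided exact permutation test gave p = 0.0286 (adjusted p = 0.0429). Both ratios have Odc1 as numerator, which was itself called with groups that did not overlap. They are therefore not independent of that result or of each other, and do not test Oaz1 or Azin1 alone.

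The ratios between members of the antizyme system did not pass an adjusted p of 0.05. The ratio of Azin1 to Oaz1 counts was 0.113 ± 0.0186 in Mock and 0.121 ± 0.00402 with GC7 (two-sided exact permutation test, p = 0.6; adjusted p = 0.6). Mock replicate 2 was the lowest of all 8 libraries in this ratio, at 0.0870. The ratio of Oaz2 to Oaz1 counts was 0.0556 ± 0.00325 in Mock and 0.0636 ± 0.00590 with GC7, with overlapping groups (two-sided exact permutation test, p = 0.0571; adjusted p = 0.0686).

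**Figure D2:**
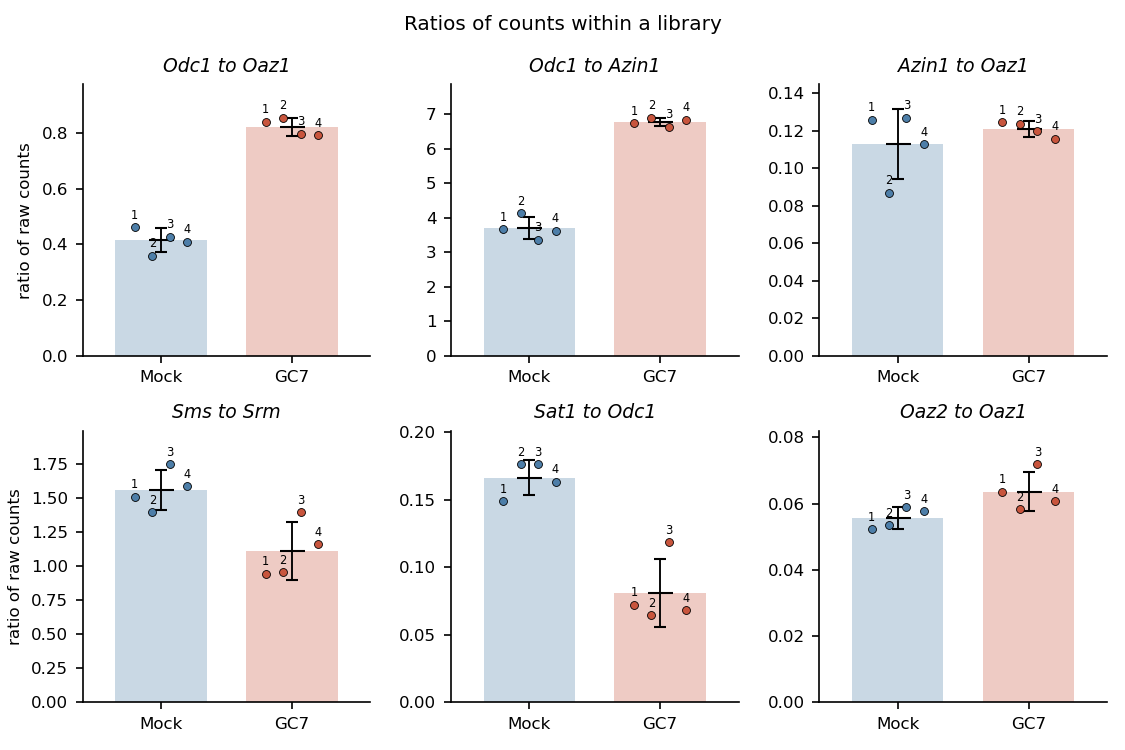
Ratios of raw counts within each library (y axis, no unit, from 0) for 6 pairs of polyamine genes, in the Mock and GC7 libraries; points are libraries numbered by replicate, bars are means and error bars are the SD (n = 4). The groups do not overlap for Odc1 to Oaz1, Odc1 to Azin1, Sms to Srm and Sat1 to Odc1, and they overlap for Azin1 to Oaz1 and Oaz2 to Oaz1.

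Atp13a3 (ENSMUSG00000022533, chr16:30312423-30405975, minus strand) encodes a P-type ATPase of the polyamine transport system. It was at 235, 147, 228 and 224 CPM in Mock (mean 209 ± 41.3) and at 243, 242, 226 and 220 CPM with GC7 (mean 233 ± 11.5). Apart from Mock replicate 2, which was far below, all libraries lay close together and the groups overlapped. The log2 fold change was 0.16 ± 0.12 (95% interval -0.11 to 0.42; adjusted p = 0.285), and without Mock replicate 2 it was 0.03 (adjusted p = 0.697).

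Levels were compared between genes as CPM per kilobase of merged exon. Merged exons pool all annotated transcripts of a gene, so their length can exceed that of the message expressed. The order of the genes is therefore approximate. In Mock cells the order ran from Oaz1 at 311 ± 37.1, through Odc1 at 96.1 ± 3.02 and Srm at 38.1 ± 3.11, to Atp13a3 at 21.01 ± 4.15 and Sat1 at 19.6 ± 1.43. The other genes were between 14.2 and 15.7, in the order Sms, Smox, Oaz2, Amd1 and Azin1, and among these 5 each overlapped the next one in the order, as Atp13a3 did with Sat1. Oaz1, Odc1, Srm and Sat1 did not overlap with the gene next below.

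With GC7 the first 4 places were held by the same genes, with Oaz1 at 256 ± 9.34, Odc1 at 158 ± 5.48, Srm at 57.4 ± 9.62 and Atp13a3 at 23.4 ± 1.16. Amd1 moved from place 9 to place 5, at 21.8 ± 1.01, overlapping Atp13a3 above it and not Sms (16.6 ± 0.82) below it. Smox moved from place 7 to place 10, at 8.36 ± 0.347, and did not overlap Azin1 (12.6 ± 0.301), the next above. Per merged exon length, Oaz1 message therefore exceeded Odc1 message in both groups, by a margin that was smaller with GC7.

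**Figure D3:**
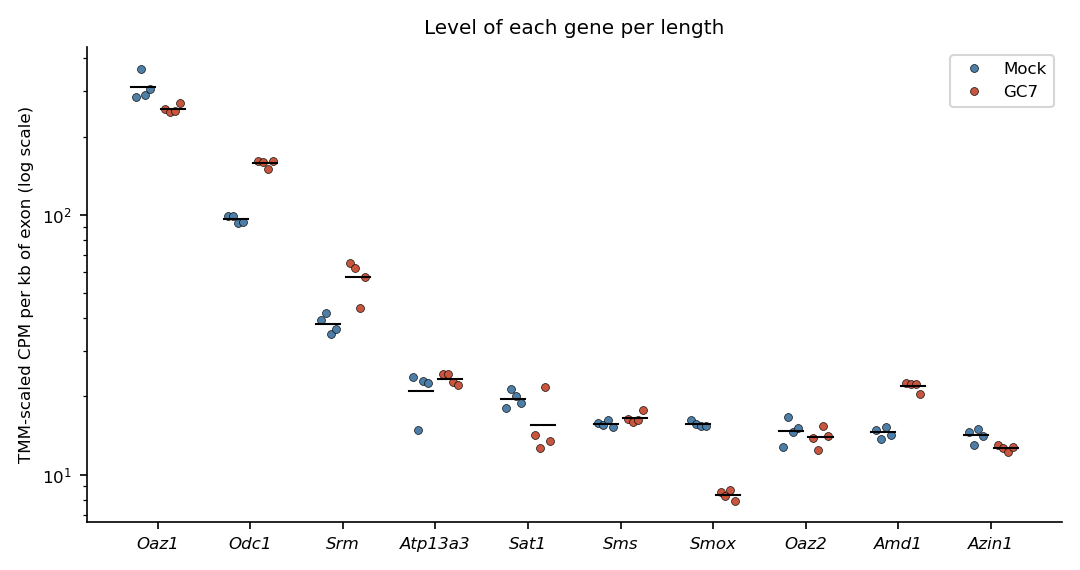
TMM-scaled CPM per kilobase of merged exon (y axis, log scale) of the 10 genes, ordered by their Mock mean; points are libraries and short lines are group means. Oaz1, Odc1 and Srm are separate from the rest in both groups, while the other 7 lie close together in Mock and Smox is lowest with GC7.

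Near-identical copies were the main uncertainty of these counts, since the sources used here do not say how reads with more than a single match were counted. A search for matches of at least 200 bases and 90% identity found copies of 7 of the 10 genes, leaving aside Gm49077, which matches Azin1 because it lies at the same position on the opposite strand. They held 25.9% to 29.6% of the joint counts for Amd1, 11.9% to 13.8% for Oaz1, 7.57% to 9.41% for Sms, 2.03% to 2.28% for Odc1 and at most 1.08% for Oaz2, Sat1 and Srm. The ranges of these shares overlapped between the groups for every gene. The search covered annotated transcripts and not the whole genome. Gm49077 aside, it found no copy of Smox, Azin1 or Atp13a3.

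The counted copies of Amd1 rose as Amd1 did. Amd2, which encodes a second S-adenosylmethionine decarboxylase, went from 12.4 ± 1.18 to 19.3 ± 0.492 CPM, with no overlap (log2 fold change 0.64; adjusted p = 3.91e-05), and the pseudogenes Amd-ps3 and Amd-ps4 had log2 fold changes of 0.61 and 0.61 (adjusted p = 0.00302 and 0.00205). Oaz1-ps, whose frameshift window is printed above, was at 114 ± 8.09 CPM in Mock and 99.8 ± 4.87 with GC7, which gave -0.20 on the log2 scale (adjusted p = 0.0224), short of the threshold like Oaz1. Sms-ps, like Sms, did not pass the threshold, with a log2 fold change of 0.00 (adjusted p = 0.974). With the counts of the named copies added to each parent, the log2 fold changes were 0.60 for Amd1, -0.27 for Oaz1 and 0.07 for Sms, and no call changed.

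**Figure D4:**
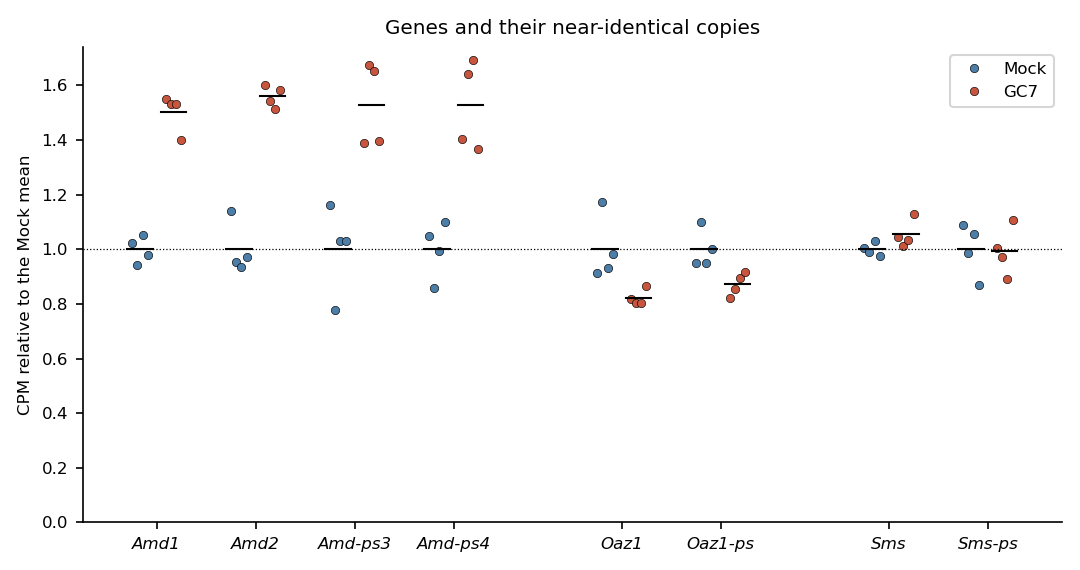
CPM of Amd1, Oaz1, Sms and their counted copies, divided by each gene's own Mock mean (y axis, no unit, from 0); points are libraries, short lines are group means and the dotted line marks the Mock mean. With GC7, Amd1 and its 3 copies all lie above 1, Oaz1 and Oaz1-ps lie below, Sms lies slightly above and Sms-ps lies around it.

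The genes that feed polyamine synthesis were read from lists arranged by role. Of 36 other genes of the pathway, 21 passed the filter on low counts, and 12 of these (57.1%) passed an adjusted p of 0.01, beside 46.6% of all genes tested, 5 higher and 7 lower with GC7 (23.8% and 33.3%, beside 23.0% and 23.5%). Their median log2 fold change was -0.14, and that of its size 0.38, beside 0.02 and 0.29 for all genes tested. More than a 2-fold change was seen for 2 of the 21 (9.52%, beside 8.48%), Mat2a and Azin2. Azin2, which is in these counts, passed the filter only through its GC7 libraries, where it was higher. For 15 of the 21 (71.4%, beside 55.6%) the libraries of the 2 groups did not overlap.

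Of the arginine and ornithine genes, Slc7a1 and Oat passed the filter. Slc7a1, the cationic amino acid transporter that brings arginine into T cells, went from 142 ± 24.6 to 239 ± 42.6 CPM, a 1.68-fold rise (log2 0.75 ± 0.14; adjusted p = 0.000651). The groups did not overlap: Mock libraries lay between 107 and 162 CPM and GC7 libraries between 182 and 273. Oat, ornithine aminotransferase, had a log2 fold change of -0.14 (adjusted p = 0.074). Arg1 and Arg2, the arginases that make ornithine, were under the filter, with at most 25 and 7 counts in any library.

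The methionine branch supplies S-adenosylmethionine to Amd1 and recovers the methylthioadenosine that Srm and Sms release. Mat2a, the S-adenosylmethionine synthetase of non-liver cells, was at 103, 95.2, 101 and 105 CPM in Mock and 214, 216, 195 and 205 CPM with GC7. The groups were far apart, with means of 101 ± 4.26 and 208 ± 9.28 CPM (2.05-fold; log2 1.04 ± 0.06; adjusted p = 3.32e-08). Mat2b, its regulatory partner, had a log2 fold change of -0.18 (adjusted p = 0.0325).

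In methylthioadenosine salvage the steps did not move together. Mtap, the phosphorylase of the first step, rose by 30.1% (log2 0.38 ± 0.10; adjusted p = 0.00519), with GC7 replicate 3 inside the Mock range. Mri1, which acts next, fell 1.25-fold (log2 -0.33 ± 0.07; adjusted p = 0.00133) and Enoph1, a later enzyme, fell 1.45-fold (log2 -0.53 ± 0.08; adjusted p = 0.000145). Apip and Adi1 did not pass the threshold, with log2 fold changes of 0.06 and 0.13, though Adi1 did with library totals (0.22; adjusted p = 0.00893). In 6 of the 8 fits that left out a library, Mtap had an adjusted p between 0.014 and 0.0209 and was not called.

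Among the other genes of catabolism, transport and the antizyme family, Paox and Atp13a2 were lower and Azin2 higher with GC7. Paox, the oxidase that acts on the products of Sat1, went from 43.1 ± 1.65 to 25.9 ± 1.22 CPM, with no overlap (1.67-fold lower; log2 -0.74 ± 0.07; adjusted p = 1.42e-06). Paox overlaps Echs1 on the opposite strand, which had more counts (log2 fold change -0.15; adjusted p = 0.0952), and the strand setting of the counting was not given in the sources used here. Atp13a2, a lysosomal polyamine exporter, went from 56.2 ± 0.896 to 34.4 ± 5.68 CPM (1.64-fold lower; log2 -0.71 ± 0.10; adjusted p = 5.74e-05), with GC7 replicate 3 the highest of its group at 42.1. Slc3a2, a subunit of amino acid exchangers that has also been linked to polyamine export, stood at 0.08 on the log2 scale (adjusted p = 0.414) and at 0.17 without GC7 replicate 3 (adjusted p = 0.0186).

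Azin2, the second antizyme inhibitor, was far lower in level than Azin1. It was at 0.714, 1.01, 1.16 and 0.947 CPM in Mock and at 3.53, 2.94, 6.77 and 4.36 CPM with GC7, with 14 to 122 counts per library. All GC7 libraries were above all Mock libraries, and GC7 replicate 3 was the highest. Azin2 passed the filter of 3 CPM only through the GC7 libraries, so its direction was tied to how it entered the test. The change was 4.50-fold (log2 2.17 ± 0.28; 95% interval 1.57 to 2.78; adjusted p = 3.2e-05), and without GC7 replicate 3 it was 1.90 on the log2 scale.

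The hypusination genes, which use spermidine and include the target of GC7, had smaller differences. Dhps, deoxyhypusine synthase, went from 24.6 ± 1.77 to 20.1 ± 1.09 CPM (1.22-fold lower; log2 -0.29 ± 0.08; adjusted p = 0.00638), and it shares its position with Wdr83 on the opposite strand, which had more counts and a log2 fold change of 0.26 (adjusted p = 0.0163). In 6 of the 8 fits without a library the adjusted p of Dhps was between 0.0108 and 0.0178, so this call was not kept there. Dohh, the hydroxylase of the second step, had a log2 fold change of -0.40 (adjusted p = 0.0218), Eif5a -0.09 (adjusted p = 0.395) and Eif5a2 0.17 (adjusted p = 0.266). The sign for Eif5a turned with library totals, and leaving out a library gave -0.13 to -0.02 for Eif5a and 0.06 to 0.25 for Eif5a2.

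Of the 4 regulators on the lists, Nfe2l2 rose and Myc and Mycn fell. Myc, a transcription factor for which Odc1 is a textbook target, was at 248, 247, 217 and 229 CPM in Mock and 156, 138, 85.7 and 141 CPM with GC7. All GC7 libraries were below all Mock libraries, with replicate 3 lowest (1.81-fold lower; log2 -0.85 ± 0.14; adjusted p = 0.000267; without that library -0.70). Mycn went from 27.8 ± 2.59 to 17.1 ± 3.79 CPM (log2 -0.70 ± 0.14; adjusted p = 0.00105). Myc and Odc1 thus differed in opposite directions between the groups. Nfe2l2, the oxidative stress factor that can act on Sat1, went from 16.4 ± 0.987 to 27.0 ± 1.11 CPM (log2 0.72 ± 0.07; adjusted p = 5.18e-06), and Pmf1, its partner at the Sat1 gene, had a log2 fold change of -0.22 (adjusted p = 0.029).

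**Figure D5:**
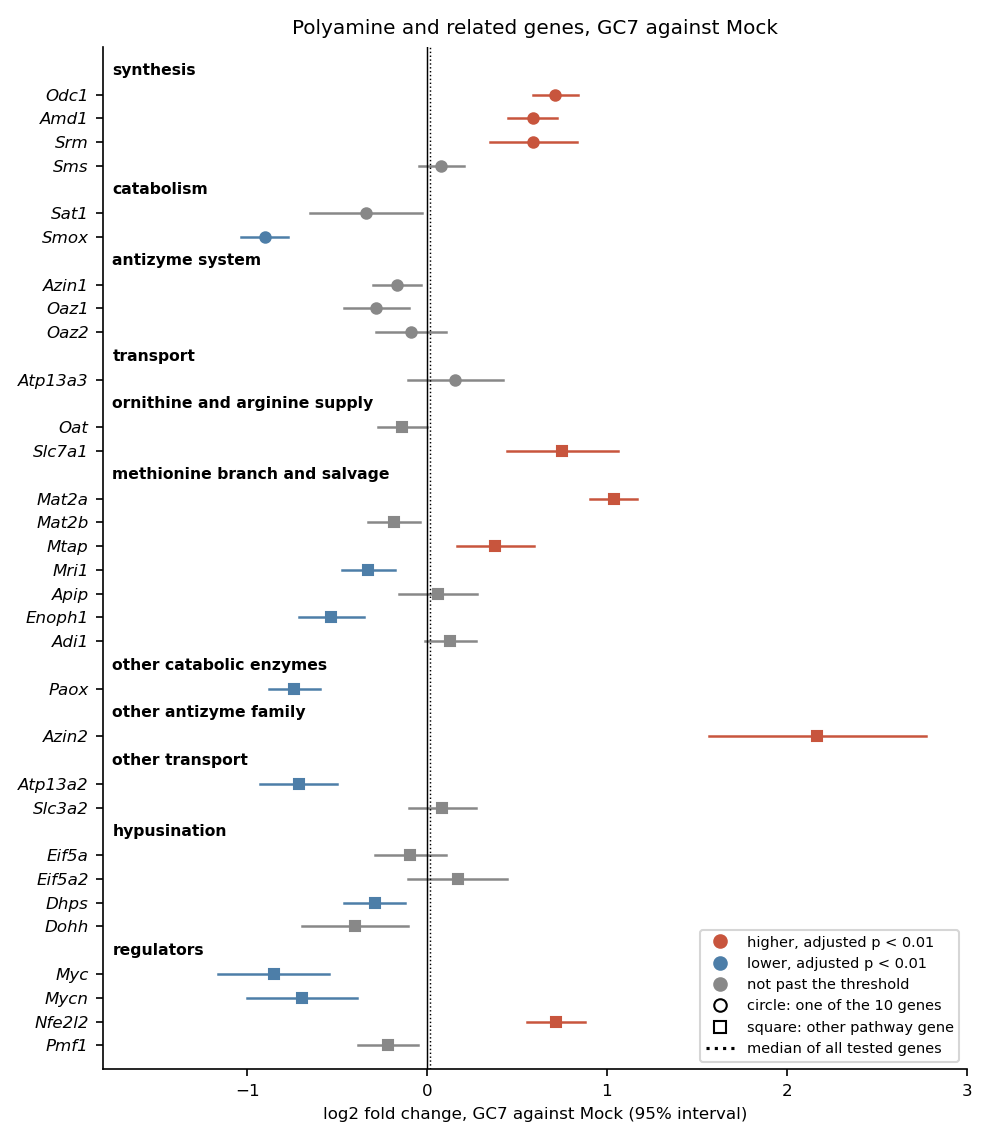
Log2 fold change of GC7 against Mock (x axis) with its 95% interval from the edgeR fit, for the 10 polyamine genes (circles) and the 21 other pathway genes that passed the filter (squares), grouped by role; red is higher and blue lower at an adjusted p under 0.01, and grey did not pass. Odc1, Amd1 and Srm lie at 0.59 to 0.71, Smox at -0.90 and Azin2 farthest out at 2.17, with the dotted line at the median of all tested genes, 0.02. Azin2 passed the filter only through its GC7 libraries.

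Since Odc1 and Amd1 rose together, their promoter sequences were examined for the letters bound by Myc family proteins and by Sp1 family proteins. RefSeq promoter windows (GRCm38.p6, 250 bases before to 50 after a start) matched 7 of the 10 genes, in 8 windows. None was matched for Srm, Azin1 and Atp13a3. The E box CACGTG was in 1 of the 8 windows, one of Sms, beside 7.15% of all 32851 windows. Sequence beyond the windows, including most of each gene, was not searched, so a missing match says nothing about sites there. The GC box GGGCGG, on either strand, was in 6 of 8, beside 35.7% of all windows. The 250 bases before the start are shown for the pair that rose, with GC boxes of either strand in capitals, at chr12:17544623-17544872 on the plus strand for Odc1 and chr10:40302189-40302438 on the minus strand for Amd1.

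Odc1: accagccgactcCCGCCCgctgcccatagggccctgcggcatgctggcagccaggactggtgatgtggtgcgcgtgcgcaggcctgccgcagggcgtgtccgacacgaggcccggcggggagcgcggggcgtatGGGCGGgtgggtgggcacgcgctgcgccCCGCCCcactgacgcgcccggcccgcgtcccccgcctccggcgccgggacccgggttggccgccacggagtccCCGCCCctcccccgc

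Amd1: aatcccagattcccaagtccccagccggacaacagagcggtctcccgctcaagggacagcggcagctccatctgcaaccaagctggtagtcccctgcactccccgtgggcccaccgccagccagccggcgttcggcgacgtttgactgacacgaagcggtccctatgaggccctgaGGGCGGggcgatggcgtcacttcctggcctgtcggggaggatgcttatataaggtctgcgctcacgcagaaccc

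The Odc1 stretch held 4 GC boxes and the Amd1 stretch 1. Smox, which fell, had 6 in its window and Sat1 had 2, so genes of either direction held these letters. The matches describe the sequence only.

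The genes whose levels were most like that of Odc1 over the 8 libraries were found by the Pearson correlation of log2 CPM among 10191 tested protein-coding genes. They were Mthfd2 (r = 0.998), a mitochondrial folate enzyme, Exosc1 (r = 0.996), a subunit of the RNA exosome, and Ctps (r = 0.996), the synthase of CTP. All 3 were higher with GC7, with log2 fold changes of 0.65, 0.55 and 0.91. These points share the difference between the groups, which any gene with a large and even change also has, so the values are a description. For Sat1, whose pattern is marked by GC7 replicate 3, they were Ube2t (r = 0.984), Spindoc (r = 0.976) and Atg16l2 (r = 0.966), with log2 fold changes of -0.23, -0.14 and -0.19.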

How the data were processed

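RNA from OT-1 CD8+ T cells was sequenced in 8 libraries, 4 per group, with groups from the sample titles. The authors deposited raw counts per Ensembl gene, neither normalised nor pooled. Per the study's methods, paired-end reads were trimmed with Cutadapt (version 2.3), mapped to GRCm38 by STAR (version 2.7.1a) and assigned to genes by featureCounts with Ensembl release 96, to which all 55536 identifiers matched. Reads carry no molecular identifiers.

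Genes above 3 CPM in at least 4 libraries were tested in edgeR (version 4.0.16, R version 4.3.3) with TMM factors and the quasi-likelihood test. P-values were adjusted by Benjamini-Hochberg over 11189 genes. They weigh the difference between the groups against the spread between these samples. Log2 CPM used a prior count of 2. Ratios were tested by exact permutation (scipy version 1.17.1). Copies were sought among annotated transcripts with BLAST (version 2.17.0). Alternatives tried were library totals, RLE factors, TMM without mitochondrially encoded genes, no filter, filterByExpr, DESeq2 (version 1.42.0), limma-voom (version 3.58.1), a replicate block, named copies added, log2 ratios and each library left out; adding all BLAST copies was chosen after seeing the data. The fits were tested on simulated data in which 200 genes were changed, whereas 5214 were called here. The simulation therefore does not show how TMM factors hold when so many genes change.

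The 10 genes and all lists were chosen with earlier results of these data known. Named are the 10 genes, their named copies, pathway genes that passed the filter, the 3 genes nearest in pattern to Odc1 and to Sat1, and markers, of which 1 is not reported here; overlapping genes (Gm49077, Echs1, Wdr83) and the arginases were added after their values were seen.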

Additional observations from a re-analysis of the deposited data

Results flagged for a closer look

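In 74 groups of 4 libraries (31 genes and 6 ratios, each in Mock and in GC7), a library was looked for whose distance to the closest of the others, divided by the group's range, exceeded Dixon's 95% critical value. It was found in 6 groups, where chance gives about 3.7. GC7 replicate 3 was the separate library in 3 of them: it was the lowest for Odc1, at 509 CPM against 545 to 547 (0.955 of the range), the lowest for Eif5a, at 959 CPM against 1186 to 1206 (0.918), and the highest for the ratio of Sat1 to Odc1 counts, at 0.118 against 0.0647 to 0.0723 (0.858). GC7 replicate 4 was the lowest for Amd1, at 72.1 CPM against 78.8 to 79.8 (0.868). Mock replicate 2 was the lowest for Atp13a3, at 147 CPM against 224 to 235 (0.877). GC7 replicate 2 was the highest for Nfe2l2, at 28.7 CPM against 26.4 to 26.5 (0.976).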

How the results depend on the processing

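Odc1, Amd1, Srm and Smox kept their direction and passed the threshold under all 18 alternatives. The number of the 10 genes past the threshold was 4 to 6, and 4 to 6 when each library was left out; it was 0 under every alternative with more than a 2-fold change. Oaz1 passed it with no filter (-0.28) and with DESeq2 (-0.29), and its log2 fold change ranged from -0.33 to -0.19 over the fits without a library. Sat1 passed with no filter (-0.34), with a range of -0.54 to -0.26 without a library, and the range of Azin1 was -0.20 to -0.14; with library totals Azin1 was -0.07. With library totals, where the median log2 fold change of all genes was 0.11 rather than 0.02, Oaz2 changed sign to 0.0070 and Eif5a to 0.0029. Of the other pathway genes, 10 to 12 were called when a library was left out and 12 under the other alternatives, though not always the same genes: with library totals Adi1 gained a call and Dhps lost one (adjusted p = 0.0355), and with no filter Dohh gained one (0.00159) and Dhps lost one (0.0106). All 6 ratios kept their side of an adjusted p of 0.05 with log2 ratios and with copies added. With 3 against 4 libraries the smallest exact p is 0.0571, so those values carry no test. The labels do not say whether same-numbered libraries are pairs, and the main fit did not treat them as such. Deviations of same-numbered libraries correlated at -0.18 to 0.27, beside -0.31 to 0.42 for differently numbered ones. So few libraries cannot settle whether the numbers mark pairs. With a replicate block, 4 of the 10 genes (3 higher, 1 lower) and 12 other pathway genes were called. Dhps lost its call (adjusted p = 0.0125) and Dohh gained one (0.00596).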
